A study of Mus musculus with 16 samples.

Results

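The T and NK cell genes described here are 10 genes taken by name from the 41079 genes of the count table, namely Cd3d, Cd3e, Cd3g, Cd4, Cd8a, Cd8b1, Nkg7, Gzma, Gzmb and Gzmk. The CD3 chains carry the signal of the T cell receptor, and the co-receptors CD4 and CD8 set which class of antigen-presenting molecule a T cell reads. Cytotoxic T cells and NK cells share a second equipment, granules loaded with granzymes, which enter a target cell and start its death. The liver holds many resident lymphocytes of both kinds, set among far more numerous hepatocytes.

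The values come from poly-A RNA of whole liver, with 4 mice in each of 4 groups, LKO and CRE- of each sex, all on the C57BL/6J background and aged 20 to 22 months. All of the mice carried floxed Gcgr, the gene of the glucagon receptor, with LoxP sites around part of it. LKO mice also carried the Albumin-Cre transgene, which acts in hepatocytes, and CRE- controls lacked it, so T and NK cells were not themselves the target of the deletion and the controls do not show what Cre alone does. The question put to these genes was whether loss of the hepatocyte receptor went with a different level of T and NK cell RNA in the aged liver, in each sex. Between 33268424 and 56488920 reads were counted on genes in each liver, and values are given as CPM, the counts of a gene scaled to a common library size after TMM normalization.

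Gcgr, the targeted gene, was at 190, 193, 127 and 190 CPM in male CRE- replicates 1 to 4 and at 117, 136, 130 and 160 CPM in male LKO replicates 1 to 4. In females it was at 162, 208, 201 and 180 CPM in CRE- livers and at 48.8, 132, 119 and 93.6 CPM in LKO livers. Every female LKO liver was below every female control, while the male groups overlapped, and the count includes exons outside the deleted part, so it checks the labels only in part. Alb, the hepatocyte albumin gene, was between 41687 and 105504 CPM over the libraries, a level that fits whole liver. A pair of female LKO livers stood apart from the other libraries in genes of other leukocytes. In female LKO replicate 1, the general leukocyte gene Ptprc was at 123 CPM, against 12.97 to 46.5 CPM in the other libraries. In female LKO replicate 4, the neutrophil gene S100a8 was at 194 CPM, and the summed neutrophil markers were at 493 CPM against 7.73 to 120 CPM in the other libraries.

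All 10 genes passed the filter on low counts, but they were low in this tissue. Their raw counts ran from 0 to 326 reads per library, and 8 of the 10 had at least 10 counts in every library. Cd8b1 reached that number in 15 libraries and Gzmk in 11. Gzmk had no read in male CRE- replicate 3, where a count of 0 allows up to 0.0780 CPM (3 counts, counting error only). Between 63.57% and 74.28% of the nonzero counts of a library are even, as when both mates of a read pair are counted, so the number of RNA fragments behind each value may be smaller by a factor of up to 2. The limit given for Gzmk would then be higher by up to the same factor.

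Divided by gene length, Nkg7, a membrane protein of cytotoxic granules, had the highest level, with 3.20 ± 1.42 CPM per kb (SD, n = 16 livers). Cd3g followed at 2.42 ± 1.13 CPM per kb and Gzma, the trypsin-like granzyme, at 2.30 ± 2.43 CPM per kb. Cd3e was at 1.38 ± 0.767, Gzmb, the caspase-activating granzyme, at 1.19 ± 0.693 and Cd3d at 0.953 ± 0.380 CPM per kb. The co-receptor genes lay close together, Cd8a at 0.710 ± 0.415, Cd4 at 0.701 ± 0.621 and Cd8b1 at 0.679 ± 0.448 CPM per kb, and Gzmk was lowest at 0.517 ± 0.431 CPM per kb. The order differed between groups, as Gzma was at 5.47 CPM per kb in female LKO livers, above Nkg7 at 4.10 CPM per kb, but at 1.16 CPM per kb in male CRE- livers, below Cd3e at 1.31 CPM per kb. Some of the steps in the order over all 16 livers held in most livers and others did not. Cd3d was above Cd8a, the next gene, in 15 of the 16 livers, Cd3g above Gzma and Cd8b1 above Gzmk in 13, and Nkg7 above Cd3g and Cd3e above Gzmb in 12, but Gzma was above Cd3e in 9, Gzmb above Cd3d in 8, Cd8a above Cd4 in 10 and Cd4 above Cd8b1 in 7 of the 16 livers.

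The largest feature of these genes was the difference between livers of the same sex and genotype. The SD of log2 CPM within groups had a median of 1.04 over the 10 genes, against 0.44 over all 16742 genes tested, most of which have more counts. Cd3e differed by a factor of 4.49 between the highest and the lowest male control and by a factor of 11.3 among the female LKO livers. The sum of all 10 genes was 22.1, 7.11, 6.81 and 24.1 CPM in male CRE- replicates 1 to 4 and 29.6, 15.2, 11.5 and 7.73 CPM in male LKO replicates 1 to 4. In females the same sum was 22.8, 8.25, 12.2 and 29.9 CPM in CRE- livers and 32.0, 19.3, 30.5 and 19.3 CPM in LKO livers. The other groups each held a liver below 10 CPM and a liver above 20 CPM, with replicates 1 and 4 rich among the controls of either sex, while the female LKO sums began at 19.3 CPM. In whole liver, fewer T or NK cells and less RNA per cell cannot be told apart.

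**Figure D1:**
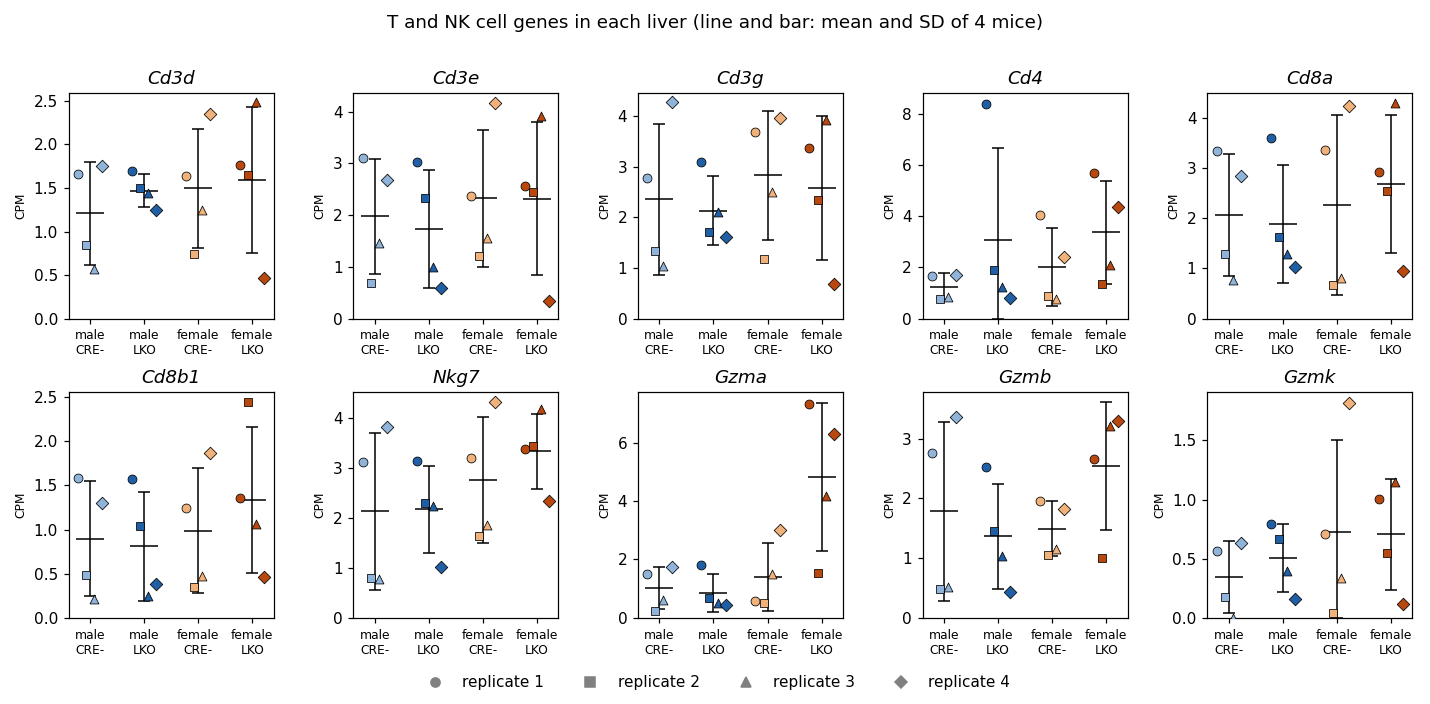
CPM (vertical axis, from 0) of each of the 10 T and NK cell genes in the 16 livers, by sex and genotype (horizontal axis), with points shaped by replicate number and lines and bars for the mean and SD of 4 mice. The groups overlap for every gene shown in both sexes, and overlap was not counted over all genes tested. The female LKO livers for Gzma run from 1.55 to 7.30 CPM against 0.506 to 2.99 CPM in female controls.

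The genes of the T cell receptor varied together over these livers. With each group's mean subtracted, Cd3d and Cd3g had the highest Pearson r of log2 CPM among the 45 pairs, 0.96 over the 16 livers, and Cd3d with Cd3e had 0.85. Cd8a and Cd8b1, which encode the chains of the CD8 heterodimer, had an r of 0.87. Gzmk, a granzyme of memory CD8 T cells, went with the receptor genes (0.92 with Cd3d and 0.91 with Cd8a) and less with its family members (0.61 with Gzmb and 0.50 with Gzma). Gzma and Gzmb had an r of 0.76 with each other but 0.35 and 0.44 with Cd3d. Cd4 was furthest from the CD3 chains, with an r of 0.26 with Cd3d, 0.40 with Cd3e and 0.40 with Cd3g, and was closer to Gzmb (0.75). All of these values are descriptions over libraries that also share their depth and tissue makeup.

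In male livers, none of the T and NK cell genes differed between LKO and CRE- mice at an edgeR adjusted p under 0.05. edgeR's quasi-likelihood test called 0 of the 10 genes, against 0.454% of all genes tested (76 of 16742), and edgeR, DESeq2 and limma each put 0 of the 10 under an unadjusted p of 0.05. The median log2 fold change of the 10 genes was -0.14, against -0.01 over all genes tested. The values of the groups overlapped for all 10 genes, but overlap was not counted over all genes tested, so this does not set the 10 apart.

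Cd3e, the CD3 epsilon chain, was at 3.10, 0.691, 1.46 and 2.67 CPM in male CRE- replicates 1 to 4 and at 3.04, 2.33, 0.994 and 0.594 CPM in male LKO replicates 1 to 4. Both groups ran from livers below 1 CPM to livers near 3 CPM, and the log2 fold change was -0.19 (95% CI -1.55 to 1.18, edgeR adjusted p = 0.949). Cd3g was at 2.78, 1.34, 1.04 and 4.27 CPM in male controls and at 3.09, 1.71, 2.11 and 1.62 CPM in male LKO livers, with a log2 fold change of -0.15 (95% CI -1.25 to 0.96, edgeR adjusted p = 0.950). The LKO livers lay inside the range of the controls for this chain. Cd3d was at 1.66, 0.847, 0.572 and 1.75 CPM in male controls and at 1.70, 1.499, 1.44 and 1.24 CPM in male LKO livers (log2 fold change 0.28, 95% CI -0.73 to 1.29, edgeR adjusted p = 0.881). Each of the LKO livers was between the low and the high controls, so the spread of Cd3d was smaller in the LKO group (SD 0.187 CPM against 0.589 CPM, n = 4 each, a difference in spread that was not tested).

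Among the co-receptors, Cd8a marks cytotoxic T cells and Cd4 helper T cells, although mouse macrophages and dendritic cells can also carry some Cd4 or Cd8a RNA. Cd8a was at 3.33, 1.29, 0.780 and 2.83 CPM in male CRE- livers and at 3.60, 1.62, 1.29 and 1.03 CPM in male LKO livers, with a log2 fold change of -0.13 (95% CI -1.47 to 1.21). Cd8b1 was between 0.208 and 1.58 CPM in controls and between 0.248 and 1.57 CPM in LKO livers (log2 fold change -0.15), close to the same range. Cd4 was at 1.68, 0.757, 0.832 and 1.71 CPM in male controls and at 8.39, 1.92, 1.24 and 0.810 CPM in male LKO livers. Male LKO replicate 1 held the highest Cd4 of all 16 livers, and the other LKO livers overlapped the controls. The male log2 fold change of Cd4 was 1.31 (95% CI -0.19 to 2.80, edgeR adjusted p = 0.584) with that liver and 0.07 without it. In the same liver Cd3e was at 3.04 CPM, no higher than in male CRE- replicate 1.

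The granule genes were as variable in males. Nkg7 was at 3.12, 0.802, 0.780 and 3.82 CPM in male CRE- livers and at 3.14, 2.29, 2.24 and 1.03 CPM in male LKO livers, with a log2 fold change of 0.03 (95% CI -1.03 to 1.08). Gzmb was at 2.76, 0.490, 0.520 and 3.37 CPM in controls and at 2.52, 1.46, 1.04 and 0.432 CPM in LKO livers (log2 fold change -0.39, 95% CI -1.70 to 0.92). Gzma was at 1.501, 0.223, 0.624 and 1.75 CPM in controls and at 1.80, 0.666, 0.497 and 0.432 CPM in LKO livers (log2 fold change -0.28, 95% CI -1.75 to 1.20). For both granzymes the highest LKO liver was replicate 1, and the LKO livers overlapped the controls. Gzmk was between 0 and 0.629 CPM in controls and between 0.162 and 0.797 CPM in LKO livers, with a log2 fold change of 0.55 (95% CI -1.55 to 2.64). The upper limits of these intervals in males lay between 0.92, for Gzmb, and 2.80, for Cd4, so sizeable differences were not excluded. The number of all genes called in males was itself unsteady, at 26 without male CRE- replicate 3 and 111 at most in the fits without 1 liver.

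In female livers, the CD3 genes had similar mean CPM in LKO and CRE- mice, and the value that differed most was Gzma, which had a higher mean in LKO livers. edgeR's quasi-likelihood test called 0 of the 10 genes, against 4.24% of all genes tested (710 of 16742), and 1 of the 10, Gzma, was under an unadjusted p of 0.05, as were 21.4% of all genes tested. DESeq2 called 0 of the 10 with 1 under an unadjusted p of 0.05. With sample quality weights, limma called 1, again Gzma, with 2 under an unadjusted p of 0.05, Gzma and Cd8a. Of all genes, DESeq2 called 1795, with 4082 under that p, and limma called 1976, with 4628 under it. The median log2 fold change of the 10 genes was 0.26, against 0.04 over all genes tested. Of the 10, 8 were above 0, as were 8891 of all 16742 genes tested. Their signs are not independent, as each of the 45 pairs had an r above 0. In the fits without 1 liver the number of all genes called ran from 87, without female CRE- replicate 2, to 1310, without female LKO replicate 2, and it was 78 without LKO replicates 1 and 4.

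Gzma was at 0.577, 0.506, 1.48 and 2.99 CPM in female CRE- replicates 1 to 4 and at 7.30, 1.55, 4.17 and 6.28 CPM in female LKO replicates 1 to 4. Every LKO liver was above the control mean of 1.39 CPM, and 3 of the 4 were above the highest control, female CRE- replicate 4. The log2 fold change was 1.80 (95% CI 0.33 to 3.27, edgeR adjusted p = 0.140), short of the threshold of 0.05 over all genes. limma's adjusted p was 0.0183, with a log2 fold change of 2.08. Over the alternative settings and the fits without 1 liver, the log2 fold change of Gzma lay between 1.08 and 2.51 and the adjusted p between 0.0183 and 0.675. Without female LKO replicates 1 and 4, a choice made after seeing the data, it was 1.08 (edgeR adjusted p = 0.675). The LKO liver with the most Gzma, replicate 1, thus had the most Ptprc, and the next, replicate 4, had the most neutrophil RNA, and the part of these in the Gzma difference was not tested.

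Gzmb, which is stored in the same granules, was at 1.95, 1.05, 1.15 and 1.82 CPM in female controls and at 2.67, 0.997, 3.22 and 3.30 CPM in female LKO livers. As with Gzma, replicate 2 was the low LKO liver and the other LKO livers were above each control, and the log2 fold change was 0.77 (95% CI -0.54 to 2.08, edgeR adjusted p = 0.519). Nkg7 was at 3.19, 1.64, 1.87 and 4.33 CPM in controls and at 3.37, 3.44, 4.17 and 2.34 CPM in LKO livers (log2 fold change 0.28, 95% CI -0.77 to 1.33). All of the LKO livers fell within the range of the controls. Gzmk was between 0.0389 and 1.82 CPM in controls and between 0.116 and 1.15 CPM in LKO livers, with a log2 fold change of -0.02 (95% CI -2.06 to 2.02).

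The CD3 chains did not share the pattern of Gzma in the edgeR fit. Cd3e was at 2.37, 1.21, 1.56 and 4.17 CPM in female CRE- livers and at 2.57, 2.44, 3.91 and 0.347 CPM in female LKO livers, and the log2 fold change was 0.00 (0.0030, 95% CI -1.36 to 1.36, edgeR adjusted p = 0.999). Cd3g was at 3.68, 1.17, 2.49 and 3.96 CPM in controls and at 3.37, 2.34, 3.91 and 0.694 CPM in LKO livers (log2 fold change -0.12, 95% CI -1.22 to 0.98). Cd3d was at 1.64, 0.740, 1.25 and 2.35 CPM in controls and at 1.76, 1.65, 2.49 and 0.463 CPM in LKO livers (log2 fold change 0.10, 95% CI -0.91 to 1.10). Female LKO replicate 4 had the lowest value of all 16 livers for each of the CD3 chains, while its Gzma was the second highest and its Gzmb the highest among the female livers. The T cell receptor alpha constant gene Trac, looked up after these values were seen, was at 0.289 CPM in that liver, also the lowest of the 16. With that liver left out, the female log2 fold change of Cd3g was 0.19. By limma, which weights the livers, it was 0.71 for Cd3d (limma adjusted p = 0.268), 0.64 for Cd3e (limma adjusted p = 0.514) and 0.47 for Cd3g (limma adjusted p = 0.541), above the edgeR values but not called, and the adjusted p of these genes reached 0.984 or more in other settings.

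The female co-receptor genes were spread as widely as the CD3 chains. Cd8a was at 3.35, 0.662, 0.814 and 4.22 CPM in female controls and at 2.92, 2.54, 4.30 and 0.955 CPM in LKO livers, with a log2 fold change of 0.25 (95% CI -1.08 to 1.58), while limma, which weights the livers, gave 1.504 for Cd8a (limma adjusted p = 0.0745, with adjusted p up to 0.989 over the settings). Cd8b1 was at 1.24, 0.350, 0.479 and 1.87 CPM in controls and at 1.36, 2.44, 1.06 and 0.463 CPM in LKO livers (log2 fold change 0.44, 95% CI -1.07 to 1.95). The CD8 genes were thus low in the same LKO liver as the CD3 chains. Cd4 was at 4.04, 0.895, 0.766 and 2.41 CPM in controls and at 5.69, 1.35, 2.09 and 4.37 CPM in LKO livers, and the log2 fold change was 0.73 (95% CI -0.74 to 2.21, edgeR adjusted p = 0.595). The LKO livers with the most Cd4 were replicates 1 and 4, and without both of them the log2 fold change of Cd4 was -0.22.

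**Figure D2:**
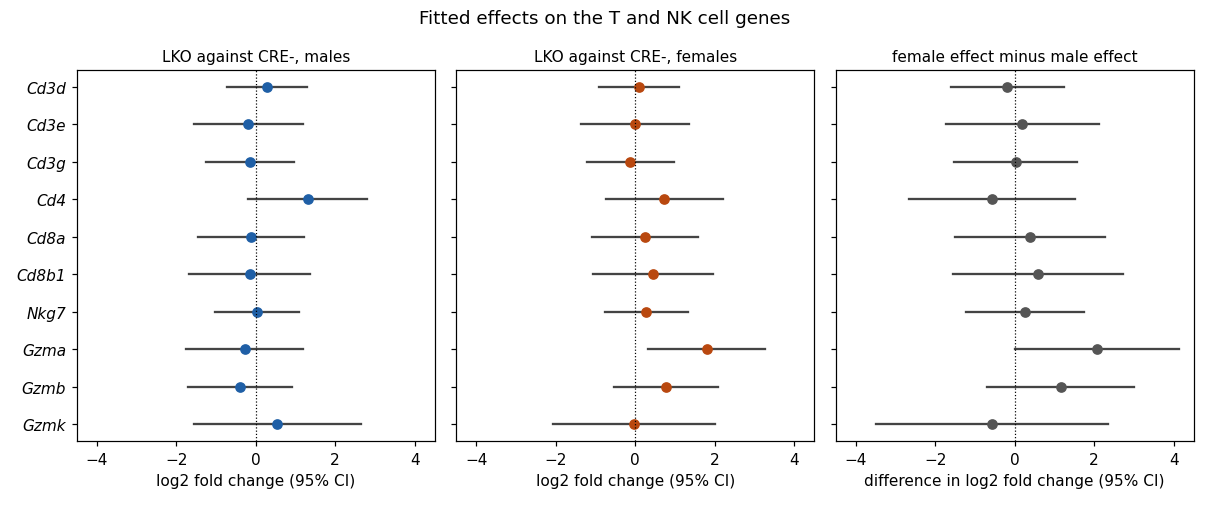
Fitted log2 fold changes (horizontal axis, points) with 95% confidence intervals (lines) for the 10 genes, from edgeR with 4 mice per group, for males, for females and for the female effect minus the male effect. Gzma in females, at 1.80 with an interval of 0.33 to 3.27, is the point within a sex whose interval leaves out 0.

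The LKO effect was also compared between the sexes. By edgeR the interval of the difference included 0 for 9 of the 10 genes, and the exception was Gzma, whose effect was higher in females. edgeR called 0 of the 10 genes for the difference, against 0% of all genes tested (0 of 16742, with 2672 under an unadjusted p of 0.05), and DESeq2 called 372 and limma 29 genes of their tables, 0 of them among the 10. The difference for Gzma was 2.08 in log2 (95% CI 0.0060 to 4.14, edgeR adjusted p = 0.313). Over the alternative settings and the fits without 1 liver it lay between 1.363 and 2.815, with adjusted p between 0.106 and 0.725. By edgeR 1 of the 10 genes, again Gzma, was under an unadjusted p of 0.05. By limma 2 of the 10 were under it, Gzma and Cd8a, as were 3651 of all genes. The difference for Cd8a was 2.13 by limma (limma adjusted p = 0.132) and 0.38 by edgeR (95% CI -1.51 to 2.27). For Gzmb it was 1.16 (95% CI -0.69 to 3.01), for Cd3e 0.19 (95% CI -1.74 to 2.12) and for Cd4 -0.57 (95% CI -2.65 to 1.51).

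Between the sexes in CRE- mice, 9 of the 10 genes had a higher mean log2 level in females, as did 8265 of all 16742 genes tested. None of the 10 differed at an edgeR adjusted p under 0.05. edgeR called 0 of the 10, against 0.920% of all genes tested (154 of 16742), with 0 of the 10 under an unadjusted p of 0.05 by edgeR, DESeq2 or limma. The median log2 difference, female minus male, was 0.28 for the 10 genes and -0.01 over all genes tested. The size of the difference was 0.23 for Cd3e (95% CI -1.13 to 1.59), 0.70 for Cd4 (95% CI -0.79 to 2.19) and -0.26 for Gzmb (95% CI -1.57 to 1.05), the last being the gene lower in females. The common direction did not hold in all other fits. Over the 10 genes, 9 of 78 fits under other settings and 15 of 160 fits without 1 liver changed sign. Without female CRE- replicate 4, the control richest in these genes, the difference was -0.25 for Cd3e, -0.39 for Cd8a and -0.32 for Gzma, and by limma each of the 9 genes was below 0, between -1.09 for Cd8a and -0.06 for Nkg7. Among related and marker genes, and named after their values were seen, edgeR called Themis, needed for T cell maturation (log2 difference -3.20, edgeR adjusted p = 0.0315), and Il12rb1 lower in female controls, and the cholangiocyte gene Krt19 higher. Themis was highest, at 8.82 CPM, in male CRE- replicate 2, where Cd3e was at 0.691 CPM, and the cell source of Themis was not tested.

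Ratios of a pair of genes within a liver depend on the scaling of the library only through the prior count of 2, which matters most at low counts. The log2 ratio of Cd8a to Cd4, a measure of the balance of the co-receptors, was 0.96, 0.74, -0.09 and 0.71 in male CRE- livers and -1.21, -0.23, 0.05 and 0.32 in male LKO livers. The mean difference was -0.85 (exact permutation p = 0.0857, adjusted over 6 tests 0.514), and -0.34 in females (exact permutation p = 0.743). In female LKO livers the ratio ran from -2.14 in replicate 4 to 1.03 in replicate 3, against -0.41 to 0.80 in female controls.

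The log2 ratio of Cd3e to Ptprc relates T cell RNA to leukocyte RNA as a whole. It was -3.68, -3.56, -3.41 and -2.75 in female CRE- livers and -5.56, -3.46, -3.55 and -6.25 in female LKO livers. Replicates 1 and 4 of the LKO livers lay below each control, and replicates 2 and 3 lay among the controls, so that the mean difference of -1.36 had an exact permutation p of 0.200 (adjusted 0.514). In males the difference was -0.05 (exact permutation p = 0.886). The log2 ratio of Nkg7 to Cd3e, which relates granule RNA to T cell RNA, was higher by 0.51 in male LKO livers (exact permutation p = 0.257) and by 0.60 in female LKO livers (exact permutation p = 0.371), with 1 liver, female LKO replicate 4, at 2.60 against 0.09 to 0.49 in the other female LKO livers. All of these tests were two-sided over 70 arrangements, whose smallest p is 0.0286.

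**Figure D3:**
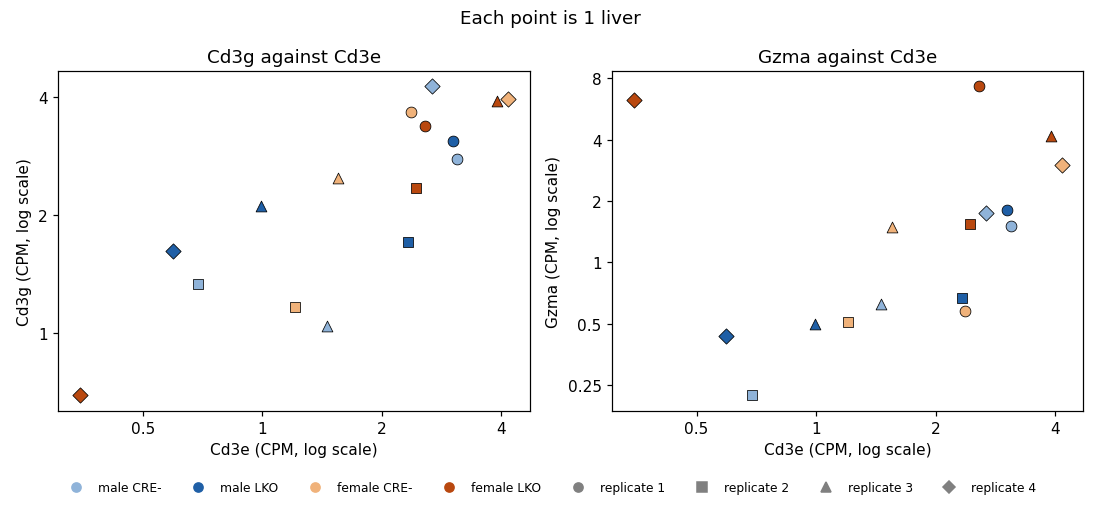
Cd3g (left) and Gzma (right) against Cd3e, each in CPM on log scales, with 1 point per liver coloured by group and shaped by replicate number. Cd3g follows Cd3e over the 16 livers, while female LKO replicate 4, with the lowest Cd3e of 0.347 CPM, has 6.28 CPM of Gzma.

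The other genes of T and NK cells were taken from 7 lists that hold 89 genes, of which 87 passed the filter. In males, 1 of the 87 was called and was lower in LKO livers (0.454% of all genes were called), and in females 2 were called and both were lower (4.24% of all genes), with median log2 fold changes over the 87 genes of -0.16 in males and 0.40 in females. The called genes belong to the list of chemokines and homing receptors (13 genes, 1 called in males and 2 in females). S1pr5, a sphingosine-1-phosphate receptor that lets NK cells leave tissues, was at 8.95, 11.7, 8.27 and 11.4 CPM in male CRE- livers and at 1.34, 4.37, 2.98 and 3.19 CPM in male LKO livers. In females it was at 13.5, 13.2, 12.5 and 15.5 CPM in CRE- livers and at 1.31, 4.99, 2.16 and 3.12 CPM in LKO livers. Every LKO liver was below every control in both sexes, and S1pr5 fell by 1.76 on the log2 scale in males (SE 0.36, edgeR adjusted p = 0.0414) and by 2.24 in females (SE 0.37, edgeR adjusted p = 0.0065). In the fits without 1 liver the female call held in 16 of 16 and the male call in 5 of 16, of which 1 was among the 8 fits that left out a male liver, with log2 fold changes between -2.02 and -1.54 in males over all settings.

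S1pr5 did not follow Cd3e from liver to liver, with an r of -0.26 over the 16 livers after group means were subtracted. Its level was nearly the same in controls poor in T cell RNA, such as male CRE- replicate 2 with 0.691 CPM of Cd3e, as in those rich in it. Cd3e is a T cell gene, S1pr5 was not correlated with an NK cell gene, and the cell source of S1pr5 was not tested. S1pr1, the related receptor used by T cells to leave lymph nodes and also abundant in endothelium, fell by 0.86 on the log2 scale in females (SE 0.21, edgeR adjusted p = 0.0312), from 72.3 to 94.4 CPM in CRE- livers to 27.8 to 50.7 CPM in LKO livers. In males it was between 41.2 and 51.7 CPM in controls and between 28.7 and 50.9 CPM in LKO livers. The S1pr1 call held in 10 of the 16 fits without 1 liver but in 2 of the 8 that left out a female liver, with log2 fold changes between -1.15 and -0.70 over all settings. It was lost with each sex fitted alone (S1pr1 -0.85, edgeR adjusted p = 0.0812). Without female LKO replicates 1 and 4, with fewer mice, the log2 fold change was -1.04 for S1pr1 (edgeR adjusted p = 0.0917) and -1.93 for S1pr5 (edgeR adjusted p = 0.0549). Cxcl9, a chemokine that draws T cells, had 24.5 CPM on average and log2 fold changes of -0.26 in males and -0.48 in females.

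In each of the other 6 lists edgeR called 0 genes in LKO against CRE- livers of either sex. Of the 17 genes of the T cell receptor complex and its signalling, 2 were under an unadjusted p of 0.05 in males and 4 in females, where 9.53% and 21.4% of all genes tested were under it. Lcp2 and Zap70 had the highest counts there, Lcp2 with 17.4 CPM on average and Zap70, the kinase that the CD3 chains recruit, with 8.62 CPM. Lcp2 was highest, at 77.0 CPM, in female LKO replicate 1, the liver with the most Ptprc, and its cell source was not tested. Of the 17 genes, 14 had a log2 fold change above 0 in females (median 0.22) and 4 in males (median -0.16). Over all 16742 genes tested, 8891 were above 0 in females and 8217 in males. Lcp2 had a log2 fold change of -0.12 in males and 1.47 in females (edgeR adjusted p = 0.102). In sign, Zap70 departed from most of its list in females but not in males. It was at 9.27, 9.22, 2.89 and 8.70 CPM in male CRE- livers and at 2.16, 2.71, 4.47 and 2.27 CPM in male LKO livers (log2 fold change -1.37, edgeR adjusted p = 0.260). In females it was at 15.3, 14.9, 13.8 and 21.1 CPM in CRE- livers and at 2.67, 14.1, 5.29 and 8.996 CPM in LKO livers (log2 fold change -1.07, edgeR adjusted p = 0.159). Like S1pr5, Zap70 did not track Cd3e between livers (r = -0.11 over 16 livers).

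Of the 15 tested genes of the list of NK receptors and NK transcription factors, 14 had a log2 fold change above 0 in females and 4 in males, with medians of 0.84 and -0.48. Over all 16742 genes tested, 8891 were above 0 in females and 8217 in males. Il2rb, the beta chain that binds interleukin 2 and interleukin 15, had a log2 fold change of -0.48 in males and 0.48 in females, and Klrk1, the activating receptor NKG2D, -0.01 and 0.83. The counts at an unadjusted p under 0.05 in this list were 1 in males and 2 in females. These counts and those of the lists that follow stand beside the same 9.53% and 21.4% of all genes. Among the 9 tested cytotoxic effectors they were 0 and 4, with Srgn, the granule proteoglycan serglycin, at log2 fold changes of 0.44 and 0.24 and Serpinb9, an inhibitor of granzyme B, at 0.27 and 0.40. The 10 T lineage transcription factors had 2 genes under that p in each sex. Zbtb7b, a factor of the CD4 lineage, had the highest counts, with log2 fold changes of -0.04 in males and -0.38 in females. It averaged 88.5 CPM, against 2.43 CPM for Cd4, and which cells its RNA came from was not tested. The 12 activation and checkpoint receptors had 0 and 4, with the costimulator Icos at -0.06 in males and 1.30 in females and Slamf7 at -0.24 and 1.16. The 11 lymphocyte cytokines and receptors had 1 and 3, and their most expressed genes, Il15ra and Il18, were not among these.

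Most markers of other leukocytes had a log2 fold change above 0 in female LKO livers, but few were called. Of the 6 general leukocyte markers, 0 were called by edgeR in females (5 under an unadjusted p of 0.05), all had a log2 fold change above 0, and none was without reads. Their sum, with Laptm5 the most abundant, was 179, 105, 119 and 262 CPM in female CRE- livers and 642, 188, 325 and 248 CPM in female LKO livers. Of the 8 markers of Kupffer cells and macrophages, 1 was called in females, Adgre1, and 7 were under an unadjusted p of 0.05. The sum of that list, led by Clec4f, was 600, 444, 477 and 870 CPM in female controls and 2989, 706, 1713 and 1061 CPM in female LKO livers. Against this, the sum of the 3 CD3 chains was highest in the replicate 3 liver of the female LKO mice, not in replicate 1.

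The neutrophil list, led by S100a9, was at 26.7, 15.01, 11.9 and 14.8 CPM in female controls and at 81.4, 31.6, 49.2 and 493 CPM in female LKO livers, with Mmp8 and Retnlg called of 5 tested. The monocyte list, led by Chil3, was at 15.7, 4.98, 6.51 and 10.6 CPM in controls and at 122, 12.7, 27.3 and 116 CPM in LKO livers, with Chil3 called of 4. Female LKO replicates 1 and 4 were thus the highest for monocyte markers, for Cd4 and for Gzma. The list of dividing cells had 4 of 5 genes called in females, Top2a, Cdk1, Ccnb1 and Birc5, and summed to 76.2, 14.9, 30.2 and 31.6 CPM in the LKO livers against 4.597 to 17.3 CPM in controls. Of 7 B cell markers 1 was called, Cr2, and the list, led by Pax5, was at 42.9, 16.4, 22.3 and 23.6 CPM in female controls and at 103, 28.7, 52.6 and 10.6 CPM in female LKO livers, of which replicate 4 was below each control and replicate 2 among them. None of the 9 marker genes called in females was called with each sex fitted alone, at similar fold changes, and leaving out 1 female liver ended most of the calls. Top2a was called in 1 of 8 such fits and Cr2, Adgre1, Mmp8 and Retnlg each in 2. Chil3 was called in 3, and Cdk1, Ccnb1 and Birc5 each in 4. With the replicate block, Adgre1 and Mmp8 were not called. None of the 9 was called without LKO replicates 1 and 4 either, a fit with fewer mice. In that fit the log2 fold change went from 2.97 to 2.72 for Cr2 and from 1.72 to 1.63 for Cdk1, but from 4.94 to 2.05 for Chil3 and from 3.50 to 1.38 for Mmp8. The part of these cell types in the values of Cd4, Gzma and Gzmb was not tested.

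No gene was called in either sex in the lists of plasma cells, conventional and plasmacytoid dendritic cells, mast cells and basophils, hepatocytes, sinusoidal endothelium, stellate cells and fibroblasts, and cholangiocytes. Of the 5 hepatocyte genes, 0 had a log2 fold change above 0 in females (median -0.79, 2 under an unadjusted p of 0.05), and Alb was lower in each female LKO liver than in any female control (log2 fold change -0.69, edgeR adjusted p = 0.103). In males no gene of any of the 14 marker lists was called by edgeR, and 7 were under an unadjusted p of 0.05, 4 of them neutrophil markers with a log2 fold change below 0.

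The genes most like each of 4 members were found by Pearson r of log2 CPM over the 16 livers with group means subtracted. For Cd3e they were Trac (0.91), Tbx21 (0.90), Pgap3 (0.90), Dzip1 (0.89) and H2-Oa (0.88). For Cd8a they were Trbc2 (0.94), Gzmk (0.91), Ubash3a (0.90), Lat (0.90) and Ccl5 (0.89). Trac and Trbc2 encode constant parts of the T cell receptor, so the genes nearest to the CD3 epsilon and CD8 alpha chains include other T cell receptor genes. Nkg7 was nearest to Serpina3f (0.93), Ccl5 (0.92), Nudt17 (0.91), Lat (0.90) and Xaf1 (0.90). Gzmb was nearest to AB124611 (0.95), Serpina3f (0.94), Nfam1 (0.93), Tnf (0.92) and the leukocyte gene Cd52 (0.92), and none of its 5 partners was a T cell receptor gene. Reads of Trbc2 can also fit its near-identical neighbour Trbc1, so its level is uncertain.

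Some of the members are neighbours in the genome (GRCm39). Cd3g (chromosome 9, 44880870 to 44891729, minus strand), Cd3d (44893067 to 44898350, plus strand) and Cd3e (44910033 to 44920961, minus strand) lie side by side, and the starts of Cd3g and Cd3d are 1338 bases apart and point away from each other. Cd8b1 (chromosome 6, 71299772 to 71314476) and Cd8a (71350411 to 71356155) are separated by 35934 bases on the plus strand, and Cd4 lies far away on the same chromosome at 124841656 to 124865210. Nkg7 is on chromosome 7 (43086562 to 43087670) and Gzmb on chromosome 14 (56496293 to 56499791). Gzma (113230358 to 113237515) and Gzmk (113308164 to 113317499) are 70648 bases apart on chromosome 13 and had an r of 0.50, while Gzmk had an r of 0.92 with Cd3d on another chromosome.

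Promoter sequences of 300 bases from RefSeq, each spanning the start of its gene, were found for 8 of the 10 members, and each matched the GRCm39 genome at 1 place. They were searched on both strands for short motifs of factors known from T and NK cells, RUNX (TGTGGT), ETS (AGGAAG), T-box (AGGTGT), AP-1 (TGANTCA) and STAT (TTCNNNGAA). The T-box letters were in 6 of the 8 promoters and in 13.7% of all 32851 promoters. The RUNX letters were in 3 of 8 (16.8% of all), the ETS letters in 3 (35.4%), the STAT letters in 3 (8.30%) and the AP-1 letters in 1 (7.81%). A match of so few letters is a description and not a binding site. The divergent Cd3d and Cd3g promoters, whose genes had the highest r, and those of Gzma and Gzmb, which departed from them in female LKO replicate 4, are given 5′ to 3′ on the strand of each gene, with motif matches in capitals; in Cd3d an ETS and a STAT match overlap.
Cd3d (chr9:44892834-44893133, plus strand): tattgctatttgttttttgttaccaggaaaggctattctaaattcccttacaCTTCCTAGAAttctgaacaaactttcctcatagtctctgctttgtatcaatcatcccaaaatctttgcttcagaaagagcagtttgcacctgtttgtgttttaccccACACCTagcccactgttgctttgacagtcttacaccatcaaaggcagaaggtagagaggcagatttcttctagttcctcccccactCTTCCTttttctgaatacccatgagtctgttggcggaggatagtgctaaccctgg
Cd3g (chr9:44891680-44891979, minus strand): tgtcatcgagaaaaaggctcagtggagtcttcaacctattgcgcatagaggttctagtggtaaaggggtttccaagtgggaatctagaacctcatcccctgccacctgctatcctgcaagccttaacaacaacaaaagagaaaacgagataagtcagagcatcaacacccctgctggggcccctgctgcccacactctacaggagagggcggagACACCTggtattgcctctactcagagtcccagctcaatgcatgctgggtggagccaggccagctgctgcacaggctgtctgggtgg
Gzma (chr13:113237466-113237765, minus strand): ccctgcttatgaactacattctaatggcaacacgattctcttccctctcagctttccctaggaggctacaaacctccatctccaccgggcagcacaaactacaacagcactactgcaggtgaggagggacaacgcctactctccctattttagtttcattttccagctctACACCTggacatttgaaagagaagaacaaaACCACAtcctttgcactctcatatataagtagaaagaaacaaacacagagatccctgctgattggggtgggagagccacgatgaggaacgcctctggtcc
Gzmb (chr14:56499742-56500041, minus strand): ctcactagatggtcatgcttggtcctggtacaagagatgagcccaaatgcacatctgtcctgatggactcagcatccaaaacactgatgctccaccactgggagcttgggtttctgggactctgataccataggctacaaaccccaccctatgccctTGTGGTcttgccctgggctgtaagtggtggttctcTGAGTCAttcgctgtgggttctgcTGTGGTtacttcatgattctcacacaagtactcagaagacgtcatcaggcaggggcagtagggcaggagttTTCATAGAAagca
Of these, Cd3d held 2 ETS, 1 T-box and 1 STAT match, Cd3g 1 T-box match, Gzma 1 T-box and 1 RUNX match, and Gzmb 2 RUNX, 1 AP-1 and 1 STAT match.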

How the data were processed

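Poly-A RNA of 16 livers was sequenced in read pairs. Per the labels, the authors aligned reads to GRCm39 with STAR 2.7.1a and made the deposited counts with featureCounts (Subread 2.0.6), strand-specifically. Both mates of a pair may have been counted, since most nonzero counts are even. The table has 41079 genes and 0 unmapped columns. The members and lists were chosen with earlier results of these data known. Genes were filtered with filterByExpr (minimum count 10), scaled by TMM and fitted in edgeR 4.0.16 (R 4.3.3) with 1 mean per group and quasi-likelihood tests. Adjusted p (Benjamini-Hochberg) under 0.05 over all genes tested is called. Intervals are 95%. Ratios of genes used a prior count of 2 and exact two-sided permutation over 70 arrangements, adjusted over 6 tests.

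Alternatives were DESeq2 1.42.0, limma 3.58.1 with sample quality weights, other scalings and filters, each sex alone, a replicate block and each liver left out. Halved counts, leaving out female LKO replicates 1 and 4 together, and the difference of ratio effects between sexes were chosen after seeing the data. Fits were also run on simulated data with 200 genes changed by a factor of 4, and no result given here uses them.

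Named genes were those called in each related or marker list and the 2 most highly expressed of each list, with the 5 genes nearest to Cd3e, Cd8a, Nkg7 and Gzmb by r. A gene that this rule names is not reported here. Other T and NK cell genes came from 7 lists, namely T cell receptor complex and signalling, NK receptors and NK transcription factors, cytotoxic effectors, T lineage transcription factors, activation and checkpoint receptors, chemokines and homing receptors, and lymphocyte cytokines and receptors. A further 14 lists held markers of other liver cell types.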

Additional observations from a re-analysis of the deposited data

Results flagged for a closer look

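Of 52 groups of 4 livers examined for a liver far from the others, 2 had such a liver. Chance gives about 1 in 20 for normally distributed values in independent groups. That rate is rough here, since the groups share livers and Cd4 was examined in CPM and not on a log scale. Cd4 in male LKO replicate 1 was at 8.39 CPM, and the nearest of the other male LKO livers was at 1.92 CPM, a gap of 0.854 of the group's whole range. The same liver was not unusual for the CD3 chains, with 3.04 CPM of Cd3e.

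The log2 ratio of Nkg7 to Cd3e was 2.60 in female LKO replicate 4, and the nearest of the other female LKO livers was at 0.49, a gap of 0.842 of the range. The liver had 0.347 CPM of Cd3e, the lowest of the 16 livers, and 2.34 CPM of Nkg7. The causes of both values were not tested.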

How the results depend on the processing

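In males, 258 fits of the 10 genes under other settings gave 0 calls (22 changed sign), in females 258 gave 1 call (25 changed sign), for the difference between the sexes 248 gave 0 calls (26 changed sign) and for female against male CRE- 238 gave 0 calls (24 changed sign). The call was Gzma in females by limma. No scaling moved the median of all genes by more than 0.1. Cd8b1 and Gzmk could not be fitted with at least 10 counts in every library, and the block was not run for female against male CRE-. The cause of the changes listed was not tested.

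With the replicate block, Cd3g in males was 0.04 (0.037), and in females Cd3e was -0.022 and Gzmk 0.68. For the difference between the sexes the block gave Cd3g -0.19 and Cd4 0.00048, with 2 genes called of all. The block gave 67 calls of all genes in males and 1012 in females, and in females Adgre1 (edgeR adjusted p = 0.0614) and Mmp8 (edgeR adjusted p = 0.0811) were not called with it. Whether equal numbers mark related mice is not stated in the labels. Correlations between equal numbers ran from -0.013 to 0.173, nearly all above 0, with the own number best in 4 of 8. These values do not settle whether the numbers pair mice, and the main fits used no block.

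By limma, Nkg7 in males was -0.20, and in females Cd3g was 0.47, Gzmk 1.96 and 1 of the 10 genes was called. For the difference limma gave Cd3d 0.60, Cd4 0.58 and Gzmk 1.62. For female against male CRE- limma gave Cd3d -0.28, Cd3e -0.32, Cd3g -0.28, Cd4 -0.16, Cd8a -1.09, Cd8b1 -0.84, Nkg7 -0.062, Gzma -0.19 and Gzmk -0.82. With each sex fitted alone, Nkg7 in males was -0.0037, and with counts divided by 2 Gzmk in females was 0.025.

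With female LKO replicates 1 and 4 both left out, chosen after seeing the data, females had Cd3g 0.17, Cd4 -0.22 and Gzmk 0.26, and the difference had Cd3d 0.22. Of all genes, 171 were then called in males, 78 in females and 3 for the difference. DESeq2 called 336 in males, 1795 in females and 372 for the difference, limma 148, 1976 and 29. Each sex fitted alone gave 119 in females, and no filter gave 12 for the difference.

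Without 1 liver in turn, the log2 fold changes in males ran from -0.62 to 0.10 for Cd3e, -0.41 to 0.31 for Cd3g, -0.67 to 0.19 for Cd8a, -0.71 to 0.26 for Cd8b1, -0.27 to 0.47 for Nkg7, -0.97 to 0.11 for Gzma and -0.89 to 0.12 for Gzmb, and all genes called from 26 (without male CRE- replicate 3) to 111. In females they ran from -0.22 to 0.41 for Cd3d, -0.39 to 0.45 for Cd3e, -0.41 to 0.19 for Cd3g, -0.093 to 0.74 for Cd8a, -0.027 to 0.95 for Cd8b1 and -0.42 to 0.98 for Gzmk, and all genes called from 87 (without female CRE- replicate 2) to 1310 (without female LKO replicate 2). The difference ran from -0.48 to 0.16 for Cd3d, -0.18 to 0.67 for Cd3e, -0.43 to 0.36 for Cd3g, -0.93 to 0.66 for Cd4, -0.19 to 0.59 for Nkg7 and -1.02 to 0.46 for Gzmk, and all genes called from 0 to 14 (without male LKO replicate 1). Female against male CRE- ran from -0.043 to 0.53 for Cd3d, -0.25 to 0.52 for Cd3e, -0.0040 to 0.71 for Cd3g, -0.39 to 0.46 for Cd8a, -0.42 to 0.55 for Cd8b1, -0.32 to 0.82 for Gzma and -0.59 to 0.24 for Gzmb. The log2 ratio of Cd8a to Cd4 in females ran from -0.78 to 0.27, and that of Cd3e to Ptprc in males from -0.36 to 0.15. Low counts and 4 mice per group limit what these fits can show.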

Other observations

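The genes most like Cd4 and Gzma were looked up after their values were seen. Cd4 was nearest to Trem2, a macrophage receptor, with an r of 0.91 over the 16 livers after group means were subtracted, and to Zfyve28 (0.91), Ms4a4a (0.91), Cyp4f18 (0.90) and Otulinl (0.90). Cd4 and Ptprc had an r of 0.77, and Cd3e and Ptprc 0.64, while with the macrophage gene Csf1r the r was 0.62 for Cd4 and 0.64 for Cd3e. Gzma was nearest to Lpcat2 (0.91), Mtfr2 (0.90), Relb (0.88), Egr2 (0.88) and Arhgap9 (0.88). The points share their libraries and depth.

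Prf1, the gene of perforin, and the NK receptor gene Ncr1 were looked up after their values were seen. In female LKO replicate 4 they were at 0.579 and 0.521 CPM beside 6.28 CPM of Gzma, and in replicate 1 Prf1 was at 4.25 CPM beside 7.30 CPM of Gzma.

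The difference of the LKO effect between the sexes, a test chosen after seeing the data, was 0.50 for the log2 ratio of Cd8a to Cd4 (exact permutation p = 0.604 over 4900 arrangements), -1.31 for Cd3e to Ptprc (exact permutation p = 0.199) and 0.09 for Nkg7 to Cd3e (exact permutation p = 0.913).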
